A study of Mus musculus with 2 samples.

Results

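Imprinted genes were described in the urinary bladder of newborn mice. The set held 38 genes known to be imprinted, meaning that in at least some tissues or transcripts the allele of a single parent is the active one, and 37 of them were found by gene identifier among the 42462 mouse genes of the deposited files that matched the GENCODE M21 annotation. Peg13 had no match and was not analysed here. The members were chosen for known imprinting, with earlier results of these data known. They were arranged by imprinted domain, meaning genes that share a control region, and by the allele known to be active. The 38 genes fell into 17 domains, of which 7 held several members and 10 held a single member.

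The measurement was total RNA-seq of whole bladders from 2 pups, pup 2 and pup 1, of the inbred strain B6NCrl, taken on postnatal day 0 from 1 pregnant female. Sex is labelled as not collected. No genetic change, transgene or treatment is named, so both pups formed 1 group and were littermates and separate animals, with 1 library each. Library totals were 32564563 expected counts in pup 2 and 43653931 in pup 1. An expected count is an estimated number of reads per gene, and TPM is a level adjusted for transcript length and for the library's total, so that TPM can be compared between genes.

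Most imprinted domains carry DNA methylation set in the egg or the sperm. It leaves the copy of a gene from the mother or from the father silent, and the silent copy need not be the methylated one. Many paternally expressed members promote growth of the fetus and many maternally expressed members restrain it, and the network is highly active before birth and is turned down as organs mature. A differentially methylated control region often drives a long non-coding RNA that acts on its neighbours. Pups of an inbred strain give no difference in sequence between the alleles, so the allele in use was not measured here, and the terms paternal and maternal below are background.

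The tissue label was checked against defining markers. All 7 smooth muscle markers reached 1 TPM in both pups and summed to 54989 TPM in pup 2 and 59978 TPM in pup 1. All 7 urothelium markers, which mark the epithelial lining, summed to 8417 TPM in pup 2 and 9190 TPM in pup 1, and all 7 fibroblast markers summed to 8703 TPM in pup 2 and 10041 TPM in pup 1. Of the 7 neuron markers 4 reached 1 TPM in both pups, and their sum of 212 TPM in pup 2 and 237 TPM in pup 1 was almost all Uchl1, at 198 and 225 TPM.

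Several members have alternative starts that differ in imprinting or in the annotated promoter, and the levels below are given by start. The 250 bases before 8 such starts are shown to let the starts be told apart. The sequences are RefSeq's, in build GRCm38.p6, read 5′ to 3′ along the gene's strand, and capitals mark each CG, the dinucleotide at which an imprint is methylated.
Gnas NESP55 start, chr2:174284070-174284319, plus strand: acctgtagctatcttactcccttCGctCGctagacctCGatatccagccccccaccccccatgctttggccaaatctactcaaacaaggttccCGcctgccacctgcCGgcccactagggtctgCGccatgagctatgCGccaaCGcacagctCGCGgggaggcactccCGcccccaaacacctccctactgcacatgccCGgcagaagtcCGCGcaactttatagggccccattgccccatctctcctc
Gnas exon 1A start, chr2:174327499-174327748, plus strand: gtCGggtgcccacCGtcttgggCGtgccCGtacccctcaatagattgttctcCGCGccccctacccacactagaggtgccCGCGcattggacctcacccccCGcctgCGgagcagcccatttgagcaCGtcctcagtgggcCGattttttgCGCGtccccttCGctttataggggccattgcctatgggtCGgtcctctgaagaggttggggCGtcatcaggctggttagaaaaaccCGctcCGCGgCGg
Gnas Gsα start, chr2:174329756-174330005, plus strand: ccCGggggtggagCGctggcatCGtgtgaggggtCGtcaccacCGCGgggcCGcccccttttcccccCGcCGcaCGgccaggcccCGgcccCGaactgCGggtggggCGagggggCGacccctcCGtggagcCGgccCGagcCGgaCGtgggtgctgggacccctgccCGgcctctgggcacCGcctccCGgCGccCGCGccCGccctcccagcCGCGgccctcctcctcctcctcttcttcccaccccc
Igf2 distal start, chr7:142666817-142667066, minus strand: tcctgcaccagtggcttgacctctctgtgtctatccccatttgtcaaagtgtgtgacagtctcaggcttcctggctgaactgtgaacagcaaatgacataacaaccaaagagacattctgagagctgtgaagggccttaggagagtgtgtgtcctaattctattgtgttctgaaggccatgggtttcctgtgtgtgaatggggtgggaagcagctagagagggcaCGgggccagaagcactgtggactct
Igf2 proximal start, chr7:142657497-142657746, minus strand: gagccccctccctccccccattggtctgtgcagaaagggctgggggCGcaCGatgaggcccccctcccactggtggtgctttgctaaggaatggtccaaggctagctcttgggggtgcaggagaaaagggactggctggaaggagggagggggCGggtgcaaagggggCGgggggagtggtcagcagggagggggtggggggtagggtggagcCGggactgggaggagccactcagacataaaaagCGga
Meg3 upstream start, chr12:109540746-109540995, plus strand: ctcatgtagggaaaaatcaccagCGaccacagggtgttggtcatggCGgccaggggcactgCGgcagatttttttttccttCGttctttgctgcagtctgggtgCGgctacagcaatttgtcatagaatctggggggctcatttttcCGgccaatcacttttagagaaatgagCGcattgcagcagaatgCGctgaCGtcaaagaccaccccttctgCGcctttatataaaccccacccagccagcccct
Mest downstream start, chr6:30737800-30738049, plus strand: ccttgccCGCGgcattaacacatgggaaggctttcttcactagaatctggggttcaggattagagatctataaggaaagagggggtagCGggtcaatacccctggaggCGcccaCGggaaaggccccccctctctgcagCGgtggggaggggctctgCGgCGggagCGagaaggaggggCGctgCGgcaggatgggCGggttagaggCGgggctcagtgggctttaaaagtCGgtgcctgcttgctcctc
Grb10 distal start, chr11:12037421-12037670, minus strand: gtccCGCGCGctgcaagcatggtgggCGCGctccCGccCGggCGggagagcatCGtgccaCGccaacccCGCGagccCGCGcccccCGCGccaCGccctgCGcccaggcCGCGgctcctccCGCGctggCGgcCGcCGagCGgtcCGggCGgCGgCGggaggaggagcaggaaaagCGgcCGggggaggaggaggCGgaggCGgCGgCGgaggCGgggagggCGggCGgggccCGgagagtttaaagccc

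The windows held 14 CG at the Gnas NESP55 start, 21 at exon 1A, 29 at the Gsα start, 1 at the distal Igf2 start, 6 at the proximal Igf2 start, 10 at Meg3, 14 at Mest and 40 at Grb10. Over all 32817 RefSeq start windows of this length, 92.1% held at least 1 CG, counted as the letters CG, which read the same on both strands, and the median was 6 with quartiles of 2 and 16. At least as many CG as at the distal Grb10 start were found in 1.31% of all windows. The share with at least as many was 6.78% for the Gsα start and 92.1% for the distal Igf2 start. RefSeq windows matched 31 of the 38 members and gave 46 windows with a median of 10 CG. The count describes these letters and says nothing of their methylation.

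Most of the imprinted genes were expressed in the newborn bladder. Of the 37 genes analysed, 29 (78.4%) had at least 1 TPM in both pups, where 32.4% of all genes had. Among protein-coding members 24 of 31 (77.4%) reached that level, against 58.5% of all protein-coding genes, and among non-coding members 5 of 6 (83.3%) did, against 9.18% of all long non-coding genes. At 10 TPM or more in both pups there were 19 members (51.4%), against 17.7% of all genes, and the 15 protein-coding members among them (48.4% of 31) compare with 33.7% of protein-coding genes. The share above a threshold is a description of a list of known genes, and no test was made of it.

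Together the members held 2927 TPM in pup 2 and 3456 TPM in pup 1, which is 0.293% and 0.346% of the libraries. The median member had a mean of 13.1 TPM. The sum was uneven, because Gnas, Igf2, Meg3, Dlk1, Mest and H19 were each above 100 TPM in both pups, while 6 members were below 1 TPM in both. In whole tissue, fewer cells of a type and less RNA per cell cannot be told apart, so a low level may come from few cells.

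By the allele known to be active, the 22 paternally expressed genes analysed summed to 1185 TPM in pup 2 and 1351 TPM in pup 1, and 15 of them had at least 1 TPM in both pups. The 13 maternally expressed genes summed to 660 TPM in pup 2 and 753 TPM in pup 1, and 12 of them reached 1 TPM in both. The median level was 10.8 TPM in the paternal class and 5.54 TPM in the maternal class. The 6 members below 1 TPM in both pups, Kcnq1ot1, Rtl1, Magel2, Rasgrf1, Dio3 and Usp29, were all in the paternal class. That class is the larger, with 22 genes against 13, and maternal Zim1 was near the threshold, at 0.77 TPM in pup 2 and 1.17 TPM in pup 1. Over all 42462 genes, 27776 were below 1 TPM in both pups. Whether the classes differ was not tested. Gnas, whose active allele depends on the transcript, and Ube3a, whose imprint is known from neurons, belong to neither class.

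**Figure D1:**
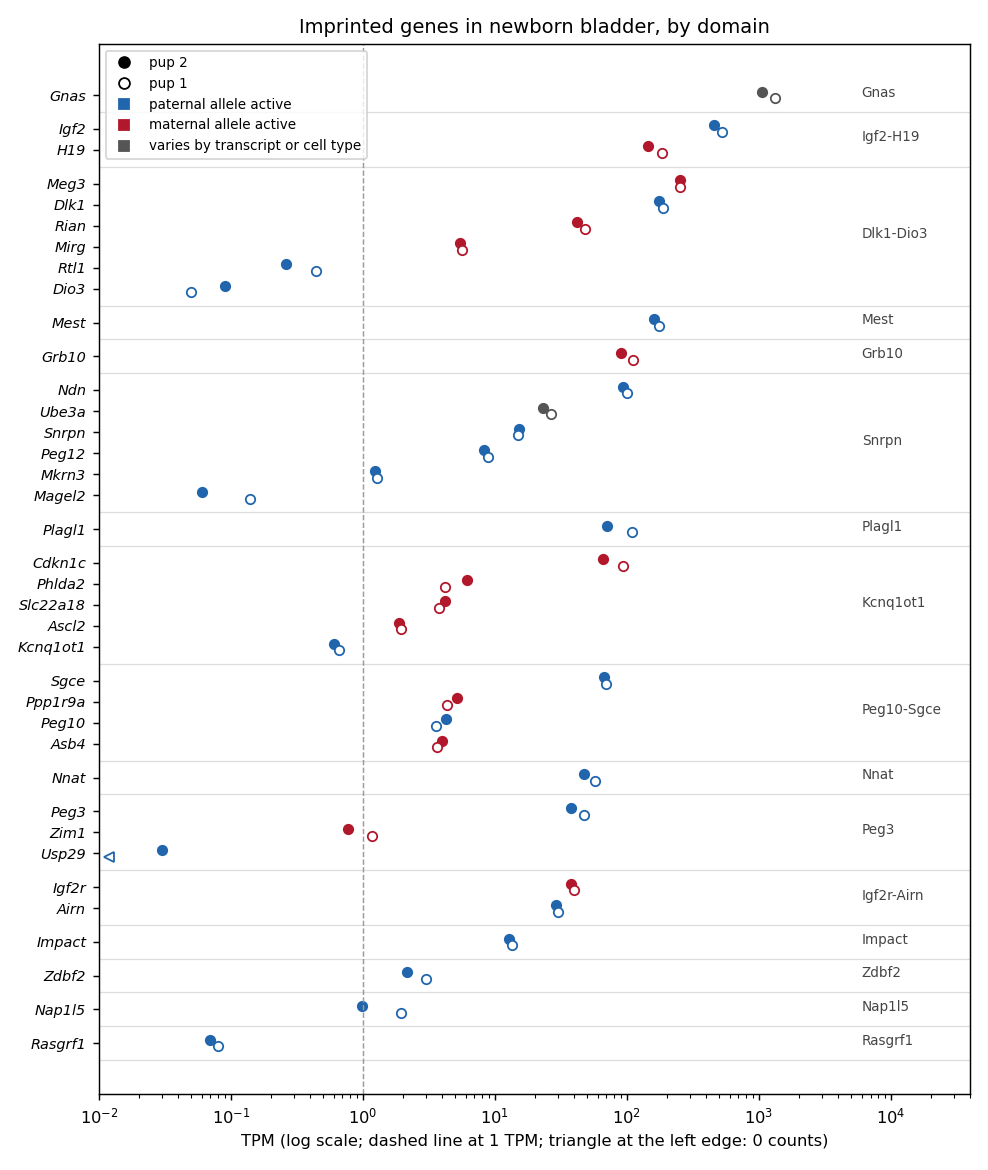
Level of each imprinted gene in TPM on a log axis, grouped by domain, with filled points for pup 2 and open points for pup 1, blue for paternally and red for maternally expressed genes. The levels span a range from 1326 TPM for Gnas in pup 1 down to 0 counts for Usp29 in pup 1. All 6 genes left of the dashed line in both pups are blue, as are 22 of the 37 genes shown.

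The Igf2-H19 domain was among the most expressed. Igf2, the paternally expressed fetal growth factor (chr7:142650766-142666816, minus strand, mm10), had 461 TPM in pup 2 and 527 TPM in pup 1, a mean of 494 ± 46.6 TPM (SD, n = 2). H19, a maternally expressed non-coding RNA downstream of it (chr7:142575529-142578143), had 144 TPM in pup 2 and 185 TPM in pup 1. The ratio of Igf2 to H19 in TPM was 3.20 in pup 2 and 2.85 in pup 1, so Igf2 was the higher of the pair in each animal.

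Igf2 has several promoters, which feed different first exons into the same coding exons. Transcript Igf2-203, whose first exon lies behind the distal window printed above and is 41 nt long, was assigned 55.1% of the gene's TPM in pup 2 and 57.4% in pup 1. That transcript is annotated with only 650 nt, and per read it was smaller, with 31.8% of the gene's counts in pup 2 and 32.3% in pup 1. The starts behind the proximal window accounted for 11% of the TPM of pup 2 and 11.8% of that of pup 1, and for 29.2% and 30.8% of counts. Igf2-208, a short non-coding transcript at the 3′ end, had a share of the TPM of 20.5% in pup 2 and 15.6% in pup 1. The split among starts therefore depended on whether reads or length-adjusted levels were counted. The distal start exceeded the proximal starts on both scales and in both pups, but by little in counts. Between them, the start at chr7:142659489 held 12.2% of counts in pup 2 and 14.5% in pup 1. Those at chr7:142661205-142661870 held 8.38% in pup 2 and 8.75% in pup 1, so most counts did not come from the distal start.

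The receptor that removes IGF2 and its antisense RNA followed at lower levels. Igf2r, the maternally expressed receptor that takes IGF2 into the cell for breakdown (chr17:12682406-12769664), had 37.9 TPM in pup 2 and 39.5 TPM in pup 1. Airn, the paternally expressed antisense RNA that silences Igf2r on the paternal chromosome, had 29.0 TPM in pup 2 and 30.1 TPM in pup 1. Igf2r over Airn was 1.31 in both pups in TPM, but 14.5 in pup 2 and 14.9 in pup 1 in counts, because the annotated Airn transcripts averaged 869 nt and those of Igf2r 8717 nt. The leading Airn transcript, Airn-201, held 47.3% of the gene in pup 2 and 46.9% in pup 1. Airn is known to be largely unspliced, and reads from its unspliced part inside Igf2r or outside the annotated exons are not in these counts, so its TPM describes the annotated exons only. The gene bodies overlap on opposite strands but their annotated exons do not.

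Grb10, an adaptor protein that restrains insulin and IGF signalling and is maternally expressed outside neurons (chr11:11930508-12038683), had 90.0 TPM in pup 2 and 111 TPM in pup 1. Its transcript from the distal start, behind the window with 40 CG, held 88.1% of the gene's TPM in pup 2 and 96.2% in pup 1. Internal starts at chr11:12026324-12026732 held 10.6% in pup 2 and 1.48% in pup 1, on 76.5 and 18.5 counts. By counts the distal start held 98.8% of reads in pup 2 and 97.8% in pup 1, so almost every Grb10 read in each pup was assigned to it.

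In the Kcnq1ot1 domain, Cdkn1c stood far above its neighbours. Cdkn1c, a maternally expressed inhibitor of cyclin-dependent kinases that stops cell division (chr7:143458339-143461050), had 65.4 TPM in pup 2 and 93.4 TPM in pup 1. Phlda2, which limits placental growth, had 6.16 TPM in pup 2 and 4.16 TPM in pup 1, on 97 and 82 counts. Slc22a18, a membrane transporter-like protein, had 4.18 TPM in pup 2 and 3.76 TPM in pup 1. Ascl2, a transcription factor needed in the placenta, had 1.89 TPM in pup 2 and 1.95 TPM in pup 1. Cdkn1c over Phlda2 was 10.6 in pup 2 and 22.4 in pup 1, the least alike in the pups among the ratios computed between genes above 1 TPM, and Phlda2 rests on fewer than 100 counts in each pup.

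Kcnq1ot1, the long paternal RNA that silences this domain, was listed at 0.61 TPM in pup 2 and 0.66 TPM in pup 1. It nevertheless had 1227 counts in pup 2 and 1678 in pup 1, because the annotated transcript spans 84395 nt. In counts Cdkn1c exceeded it by 2.30 times in pup 2 and 3.0 times in pup 1, and in TPM by 107 times and 141 times. The level below 1 TPM was thus measured on many reads, unlike the other 5 genes below that level. The transcript lies within Kcnq1, which is on the opposite strand and had 0.72 TPM in pup 2 and 0.52 TPM in pup 1. Because the strand setting is not given, unspliced Kcnq1 reads could be among the Kcnq1ot1 counts.

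**Figure D2:**
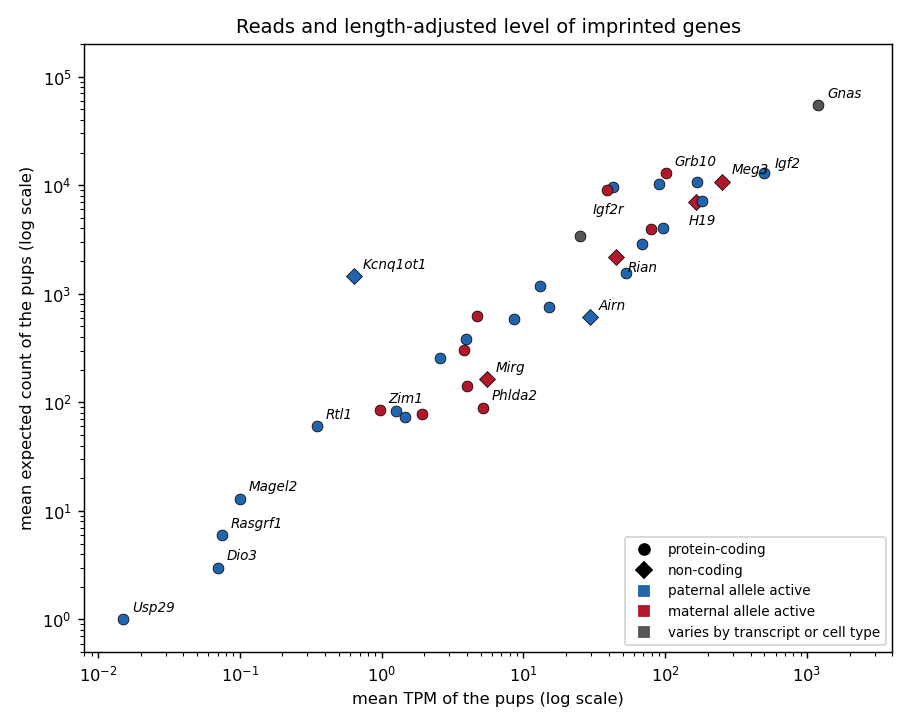
Mean expected count of each imprinted gene over the pups against its mean TPM, both on log axes, with diamonds for non-coding and circles for protein-coding genes. Kcnq1ot1 lies above the other genes of its level, with a mean of 1452 counts at 0.64 TPM, and Airn lies below genes of like level, with a mean of 29.5 TPM.

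The Dlk1-Dio3 domain on chromosome 12 combined 4 genes above 1 TPM with 2 below it. Meg3, a maternally expressed non-coding RNA (chr12:109541001-109571726), had 253 TPM in pup 2 and 252 TPM in pup 1. Dlk1, a paternally expressed membrane protein of the Notch ligand type that holds cells in an immature state (chr12:109452823-109463336), had 174 TPM in pup 2 and 188 TPM in pup 1. The ratio of Dlk1 to Meg3 was 0.686 in pup 2 and 0.746 in pup 1, so the paternally expressed gene was the lower of this pair in both animals.

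The non-coding genes downstream of Meg3, which host small nucleolar RNAs and microRNAs on the same strand, were lower the farther they lay from it. Rian had 42.2 TPM in pup 2 and 48.2 TPM in pup 1, and Mirg had 5.49 TPM in pup 2 and 5.59 TPM in pup 1. Meg3 over Rian was 6.00 in pup 2 and 5.22 in pup 1, and Rian over Mirg was 7.69 in pup 2 and 8.61 in pup 1. The order Meg3, Rian, Mirg is the order along the chromosome, and it was the same in both pups. The small RNAs themselves were outside the size range: of 58 microRNA entries between the start of Meg3 and the end of Mirg, 57 were at 0 counts in both pups and the remaining entry had 1 count in each, and all 23 small nucleolar RNA entries were at 0. The longest entries were 124 and 82 nt, and the labels give an RNA size range above 200 nt, so these zeros do not bear on the small RNAs.

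The remaining paternal genes of the domain were below 1 TPM in both pups. Rtl1, a retrotransposon-derived gene needed in the placenta, had 0.26 TPM in pup 2 and 0.44 TPM in pup 1, on 39 and 82 counts. Its exon overlaps microRNA entries on the opposite strand, and whether strand was used in counting is not given. The Rtl1 counts may therefore include reads of that strand. Dio3, which inactivates thyroid hormone, had 3 counts in each pup, which is no more than the 3 counts that a count of 0 allows. Dlk1 was the only paternal gene of this domain above 1 TPM in both pups.

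The same pair of Meg3 transcripts led in both pups. Meg3-205 held 75.8% of the gene's TPM in pup 2 and 79.1% in pup 1, and Meg3-207 held 17.6% in pup 2 and 16.4% in pup 1. No other Meg3 transcript reached 5% in either pup, and Meg3-208 held 3.19% in pup 2 and was at 0 counts in pup 1. Meg3-205 and Meg3-207 begin behind the printed Meg3 window, and the starts there made up 93.4% of the gene in pup 2 and 95.5% in pup 1. Dlk1-205 led Dlk1 with 82.2% in pup 2 and 72.5% in pup 1, and Dlk1-203 took 4.97% in pup 2 and 17.1% in pup 1. For Dlk1-203 the deposited posterior SD, the authors' own measure of how uncertainly reads were divided, was 26.0% of its count in pup 2 and 9.44% in pup 1.

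Gnas was the most expressed of the imprinted genes and ranked 86th among protein-coding genes by mean TPM. The gene (chr2:174284320-174346744, plus strand) uses 4 known first exons that splice onto shared exons: NESP55 transcripts are made from the maternal allele, XLαs and exon 1A transcripts from the paternal allele, and Gsα, the stimulatory G protein subunit, from both alleles in most tissues. The whole gene had 1058 TPM in pup 2 and 1326 TPM in pup 1.

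Most of this level came from the start that is not imprinted in most tissues. Gsα starts held 951 TPM in pup 2 and 1191 TPM in pup 1, which was 89.9% of the gene in both. NESP55 starts held 79.4 TPM in pup 2 and 106 TPM in pup 1, or 7.51% and 7.96%. XLαs starts held 9.84 TPM in pup 2 and 10.7 TPM in pup 1, or 0.92% and 0.81%. Exon 1A starts held 14.4 TPM in pup 2 and 14.0 TPM in pup 1, or 1.37% and 1.07%. In both pups the maternal NESP55 transcripts exceeded the sum of the paternal XLαs and exon 1A transcripts, by 3.27 times in pup 2 and 4.27 times in pup 1. The NESP55 level alone was above that of every maternally expressed member except Meg3, H19 and Grb10, in each pup.

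Of all Gnas transcripts, 4 held at least 5% of the gene in either pup. Gnas-208 (Gsα) held 68.8% in pup 2 and 66.5% in pup 1, Gnas-206 (Gsα) 12.6% and 14.2%, Gnas-207 (Gsα) 8.57% and 9.2%, and Gnas-211 (NESP55) 7.08% and 7.56%. The posterior SD was 1.77% of the count of Gnas-211 in pup 2 and 1.43% in pup 1. Among less abundant ones the division was less certain, at 47.0% in pup 2 and 24.0% in pup 1 for the XLαs transcript Gnas-224. Exons of Gnas overlap opposite-strand genes: Nespas by 988 nt, at 2.28 TPM in pup 2 and 2.31 TPM in pup 1, and Gm20721 by 1469 nt, at 41.0 and 19.2 TPM. Whether strand was used in counting is not given in the sources used here, so the reads of such partners cannot be told apart with certainty.

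**Figure D3:**
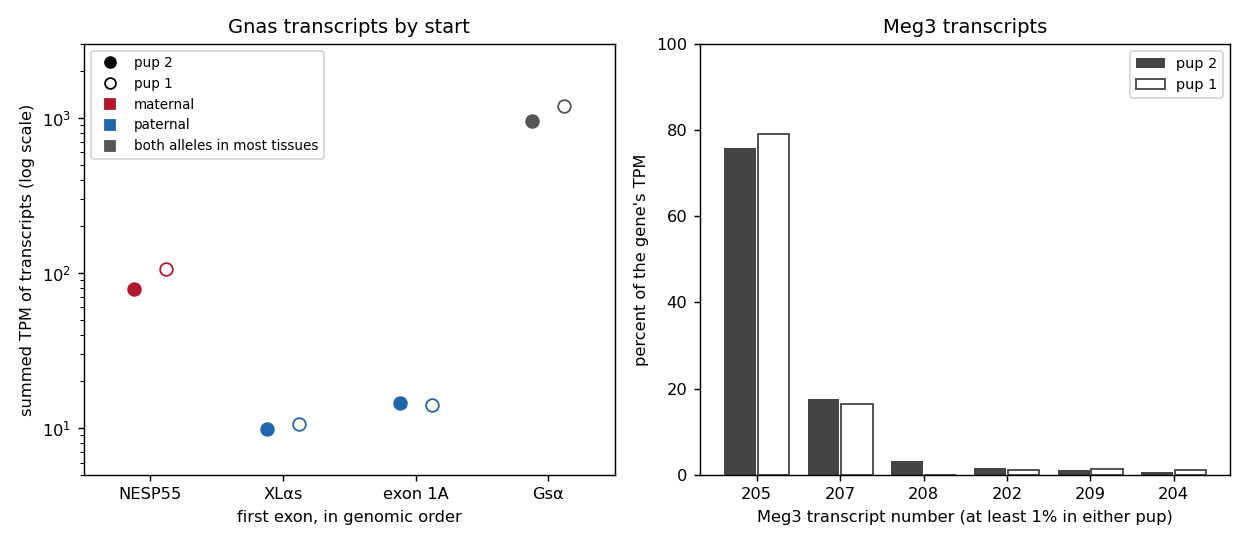
Left, summed TPM of Gnas transcripts by first exon on a log axis, with filled points for pup 2 and open points for pup 1. Right, percent of Meg3 TPM for each transcript of at least 1% in either pup, with filled bars for pup 2 and open bars for pup 1, where Meg3-205 leads with 75.8% and 79.1%.

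In the Snrpn domain on chromosome 7 the genes spread widely in level. Ndn, a MAGE family protein linked to neuronal differentiation and cell cycle exit (chr7:62346569-62350262), had 93.5 TPM in pup 2 and 99.8 TPM in pup 1. Snrpn, which encodes the splicing protein SmN, had 15.3 TPM in pup 2 and 15.1 TPM in pup 1. Its transcript Snrpn-201 held 98.7% in pup 2 and 98.0% in pup 1, so among transcripts listed under Snrpn the upstream start contributed little. Separate entries on the same strand share Snrpn exons, and reads were divided among them. Snurf shares 216 nt and had 9.19 TPM in pup 2 and 10.2 TPM in pup 1. Gm38393 shares 589 nt and had 0.04 and 0.11 TPM. Ndn over Snrpn was 6.10 in pup 2 and 6.62 in pup 1.

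Ube3a, a ubiquitin ligase silenced on the paternal allele in neurons, had 23.3 TPM in pup 2 and 26.6 TPM in pup 1. Snhg14, which holds the antisense RNA that silences it and overlaps its exons by 1803 nt, had 2.66 TPM in pup 2 and 3.24 TPM in pup 1. Peg12, a relative of the Frat proteins that bind GSK3, had 8.26 TPM in pup 2 and 8.84 TPM in pup 1. Mkrn3, a makorin ring finger protein, had 1.23 TPM in pup 2 and 1.28 TPM in pup 1. Magel2, a neighbour of Ndn and also a MAGE protein, had 7 counts in pup 2 and 19 in pup 1. Ndn and Magel2 lie side by side and are both paternally expressed, and here they marked the ends of the domain's range.

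In the Peg3 domain the named gene carried nearly all reads. Peg3, a paternally expressed zinc finger protein (chr7:6703892-6730431), had 37.9 TPM in pup 2 and 47.0 TPM in pup 1. Zim1, a maternally expressed zinc finger gene beside it, had 0.77 TPM in pup 2 and 1.17 TPM in pup 1, on 60 and 109 counts. Usp29, a ubiquitin protease family gene that starts next to Peg3 on the opposite strand, had 2 counts in pup 2 and 0 in pup 1, and 0 counts allow up to 3. Peg3 had 7571 counts in pup 2 and 11576 in pup 1. The deposited entry for Usp29 held a single transcript of 2610 nt. That transcript starts at chr7:6961160, so the Usp29 counts do not cover the start next to Peg3.

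The Peg10-Sgce domain on chromosome 6 was led by Sgce, the paternally expressed epsilon-sarcoglycan of the muscle membrane complex (chr6:4674350-4747207), with 66.8 TPM in pup 2 and 70.0 TPM in pup 1. Peg10, a retrotransposon-derived gene needed in the placenta that starts next to Sgce on the other strand, had 4.25 TPM in pup 2 and 3.59 TPM in pup 1. Sgce over Peg10 was 15.7 in pup 2 and 19.5 in pup 1. The maternally expressed Ppp1r9a, which encodes the actin-binding neurabin, had 5.15 TPM in pup 2 and 4.33 TPM in pup 1, and Asb4, a SOCS box protein, had 4.01 TPM in pup 2 and 3.64 TPM in pup 1. These 3 neighbours of Sgce all lay between 3.59 and 5.15 TPM in both pups.

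Members that are alone in their domain here included some of the highest. Mest, a paternally expressed enzyme of the hydrolase fold linked to growth (chr6:30723547-30748465), had 160 TPM in pup 2 and 175 TPM in pup 1. The starts behind the printed Mest window made up 97.0% of its level in pup 2 and 93.7% in pup 1. Copg2 overlaps 912 nt of Mest exons on the opposite strand, which is 23.1% of them, and had 14.3 TPM in pup 2 and 17.8 TPM in pup 1. Mest exceeded Copg2 by 11.2 times in pup 2 and 9.82 times in pup 1.

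Plagl1, a paternally expressed zinc finger transcription factor that restrains division and acts on other imprinted genes (chr10:13060504-13131694), had 70.4 TPM in pup 2 and 109 TPM in pup 1. Its starts within chr10:13090691-13091013 took 99.2% in pup 2 and 98.5% in pup 1. Nnat, a small membrane protein known from neurons and endocrine cells, had 47.6 TPM in pup 2 and 57.6 TPM in pup 1, and Blcap, the gene that contains it, had 36.5 TPM in pup 2 and 41.4 TPM in pup 1. Whether neurons carried the RNA of Nnat, Ndn or Snrpn was not tested.

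The other single members were lower. Impact, an inhibitor of the kinase GCN2, had 12.8 TPM in pup 2 and 13.4 TPM in pup 1. Zdbf2, a zinc finger gene linked to feeding in newborn mice, had 2.16 TPM in pup 2 and 3.0 TPM in pup 1. Nap1l5, a relative of nucleosome assembly proteins, had 0.98 TPM in pup 2 and 1.96 TPM in pup 1, on 42 and 105 counts. Rasgrf1, a Ras exchange factor known from the brain, had 3 counts in pup 2 and 9 in pup 1. Zim1 and Nap1l5 were the 2 members that lay on different sides of 1 TPM in the pups.

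The leading transcript was the same in both pups for 26 of the 29 members that reached 1 TPM. It differed for Mirg (Mirg-207 at 44.4% in pup 2, Mirg-201 at 36.6% in pup 1), Rian (Rian-213 at 38.4% in pup 2, Rian-202 at 40.6% in pup 1) and Ppp1r9a (Ppp1r9a-204 at 32.6% in pup 2, Ppp1r9a-201 at 35.4% in pup 1). These 3, with Airn and H19, were also the 5 genes whose leading transcript held less than 50% in both pups. H19-202 led H19 with 37.6% in pup 2 and 36.1% in pup 1. By the deposited posterior mean share the leader changed for Rian and Ascl2. Rian-202 then led Rian in both pups, and Ascl2-201 led Ascl2 in both, whereas Ascl2-202 held 67.7% in pup 2 and 100% in pup 1 by the share used above. The leading Peg10 transcript, which GENCODE M21 does not list, held 50.1% in pup 2 and 41.3% in pup 1.

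The pups differed little in their imprinted genes, as they did over all genes, so this did not set the imprinted genes apart. Between them, counts were scaled for library size and given as the log2 ratio of pup 2 over pup 1, so that a negative value is lower in pup 2. With 1 library per pup there is no replicate check and no test, and the 95% intervals are exact (Clopper-Pearson) and cover counting error only. None of the 27 members with a mean of 100 counts or more was 2-fold apart, where 1.96% of all 12688 genes with such counts were. Of 33 members with a mean of 20 counts or more, 20 were lower and 13 higher in pup 2, with a median of -0.02, and over all genes with such counts 52.7% were lower and the median was -0.02. By the ratio of deposited TPM the split was 26 lower and 7 higher, with 63.9% of all genes lower.

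The largest differences among members with a mean of 100 counts or more were those of Plagl1, Cdkn1c and Grb10, all lower in pup 2. Plagl1 had a log2 ratio of -0.51 (-0.55 to -0.47), on 7068 counts in pup 2 and 13328 in pup 1. Cdkn1c had -0.43 (-0.50 to -0.37), on 2816 and 5033 counts, and Grb10 had -0.37 (-0.40 to -0.33), on 9529 and 16247 counts. The middle 95% of all genes with a mean of 100 counts or more ran from -0.50 to 0.69, so of these only Plagl1 lay outside it, and only just. With Mirg at -0.32 (-0.65 to 0.01), 4 of the 27 members (14.8%) were at least 1.2-fold lower in pup 2, and 12.0% of all genes were, a similar share. By the ratio of deposited TPM, Mirg had -0.03, which is below that size, and Zdbf2 had -0.47, against -0.17 by scaled counts.

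The growth factor and the abundant non-coding RNAs moved less. Igf2 had a log2 ratio of -0.15 (-0.19 to -0.12), H19 -0.19 (-0.24 to -0.14), Gnas -0.25 (-0.26 to -0.23), Peg3 -0.21 (-0.25 to -0.17), Nnat -0.20 (-0.31 to -0.10) and Rian -0.18 (-0.27 to -0.09). Dlk1 had 0.02 (-0.03 to 0.06), Mest -0.02 (-0.06 to 0.02), Ndn -0.01 (-0.08 to 0.05), Sgce 0.00 (-0.08 to 0.07) and Igf2r 0.01 (-0.03 to 0.05), and these intervals include equal levels. Meg3 had 0.05 (0.01 to 0.09), and was the only member of the 27 whose interval lay above 0. The interval excluded equal levels in 11 of 27 members (40.7%), against 52.3% of all genes, with 10 lower (30.1% of all genes) and 1 higher (22.3% of all genes).

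Members with fewer counts gave wider intervals. Nap1l5 had -0.92 (-1.47 to -0.39), Rtl1 -0.67 (-1.26 to -0.10) and Zim1 -0.46 (-0.94 to 0.01), while Phlda2 had 0.65 (0.21 to 1.09). Each of these rests on a mean below 100 counts.

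**Figure D4:**
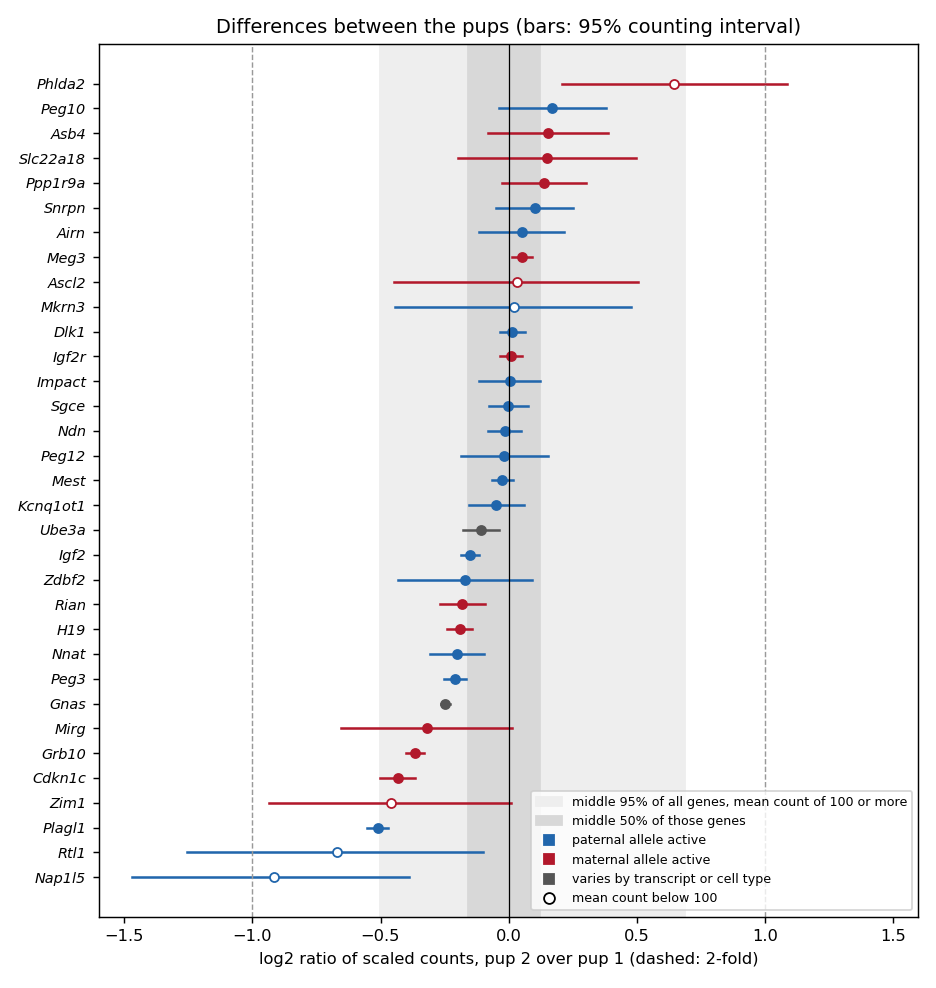
Log2 ratio of pup 2 over pup 1 for the 33 imprinted genes with a mean of 20 counts or more, with bars for the 95% counting interval and open points below a mean of 100 counts. Grey bands give the middle 50% and the middle 95% of all genes with a mean of 100 counts or more, and of the filled points only Plagl1, at -0.51, lies outside the wider band.

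Markers of cell division and of some other cell types differed between these pups in the same libraries. Markers of smooth muscle, fibroblasts, urothelium, neurons and endothelium went both ways. Their median log2 ratios were -0.06, -0.11, 0.02, 0.23 and 0.00 in that order. All 7 proliferation markers were lower in pup 2, with a median log2 ratio of -0.54 and sums of 240 TPM in pup 2 and 334 TPM in pup 1. All 6 skeletal muscle markers with a mean of 20 counts or more were lower in pup 2 as well, with a median of -0.41. Acta1 and Ckm, the most abundant of them, were at -0.05 each, and Myog had 0 counts in both pups. Mylpf and Myl1 rest on means of 32.5 and 33.5 counts, and the interval of Mylpf (-1.06 to 0.48) includes equal levels. All 7 liver markers were lower in pup 2, with sums of 23.4 TPM in pup 2 and 90.8 TPM in pup 1. All 7 erythroid and all 7 macrophage markers were higher in pup 2, with erythroid sums of 59106 TPM in pup 2 and 21722 TPM in pup 1 and macrophage sums of 1775 and 521 TPM. The part of these cells in the differences of Plagl1, Cdkn1c, Grb10 and Igf2 was not tested. Scaling without the erythroid, macrophage and liver markers left the median of the imprinted genes at -0.02.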

How the data were processed

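The bladders of 2 newborn pups were measured by total RNA-seq, from 10 ng of RNA each per the labels. The authors deposited expected counts (estimated reads per gene or transcript, not normalised), TPM and FPKM values, the percent of each gene per transcript, and a posterior SD (a score of how uncertainly reads were divided), per the file headers in the layout of RSEM. Assembly mm10 and annotation M4 are named in the submitters' processing notes. Not given in the sources used here are the aligner, tool versions and strand setting.

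Identifiers were matched to GENCODE M21, and 884 of 43346 mouse entries did not match. Expected counts were rounded, scaled by TMM (edgeR 4.0.16, R 4.3.3; alternative DESeq2 1.42.0) and turned into log2 ratios, with a count of 0 set to 3. No test across animals was possible. PCR copies are not told apart. The ratio step was tested on simulated data. Transcripts starting within 1000 bases were joined as 1 start. TPM rests on the annotated transcript lengths.

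The members and lists were chosen with earlier results of these data known. All 38 genes are named. Values in both pups are given for genes at 1 TPM or more, for those 2-fold apart and for the ends of a domain's range. Of the other lists, the 4 highest, those below 1 TPM and those 2-fold apart are named. Transcripts are named at 5% or more for Gnas and Meg3, and elsewhere where the leading one differed or held under 50%. Other transcripts and starts named were chosen after their values were seen.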

Additional observations from a re-analysis of the deposited data

How the results depend on the processing

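The number of members at 1 TPM or more in both pups, 29, was 28 with an FPKM of 1, 27 at 2 TPM, 32 at 0.5 TPM and 33 with 10 counts. With TPM rescaled over nuclear genes, leaving out the alpha and beta globin genes as well, it was 30. Leaving out either pup gave 29 to 31. No member with a mean of 100 counts or more was 2-fold apart under any of the scalings run, and without a count minimum there were 2, Magel2 and Rasgrf1, which have at most 19 counts in a pup. The median log2 ratio of the members stayed between -0.11 (ratio of deposited TPM, which moved the median of all genes to -0.09) and -0.01 (total counts). Under total counts 17 of 33 members and 49.3% of all genes were lower in pup 2, against 20 members and 52.7% of all genes in the main scaling. No paired analysis was possible because the samples form a single group. With a single litter and 1 library per pup, the spread between animals rests on 2 values.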

Other observations

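A list of 37 further imprinted genes, of which 36 were matched, gave 26 with at least 1 TPM in both pups (72.2%), where 32.4% of all genes and 58.5% of protein-coding genes had that level. None of its 22 genes with a mean of 100 counts or more was 2-fold apart, where 1.96% of all such genes were. The highest were Dcn, a matrix proteoglycan of fibroblasts, with 1122 TPM in pup 2 and 1238 TPM in pup 1, and Cd81, a tetraspanin of the cell surface, with 621 TPM in pup 2 and 700.0 TPM in pup 1. Commd1, a copper and trafficking protein, had 235 TPM in pup 2 and 250 TPM in pup 1, and Nap1l4, a nucleosome assembly protein, had 100.4 TPM in pup 2 and 104 TPM in pup 1. Several of the genes on this list are imprinted in the placenta or brain alone. The 9 genes below 1 TPM in both pups were Kcnq1, Th, Slc22a3, Htr2a, Ins2, Kcnk9, Slc22a2, Nctc1 and Calcr. Th, the enzyme that starts catecholamine synthesis, had 25 counts in pup 2 and 16 in pup 1, and Slc22a3, an organic cation transporter, had 38 in pup 2 and 20 in pup 1, and both were 2-fold higher in pup 2 on these low counts. Calcr had 0 counts in both pups, which allows up to 3 in each.

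Of 19 genes that set or keep imprints, 17 (89.5%) had at least 1 TPM in both pups. Of all genes 32.4% had that level, and of protein-coding genes 58.5%. Trim28, the corepressor recruited to methylated imprints, had 86.2 TPM in pup 2 and 79.6 TPM in pup 1. The histone demethylase Kdm1b had 53.0 TPM in pup 2 and 60.8 TPM in pup 1, the DNA methyltransferase Dnmt3a 38.9 TPM in pup 2 and 48.1 TPM in pup 1, and Ctcf, the insulator protein of the Igf2-H19 domain, 34.8 TPM in pup 2 and 38 TPM in pup 1. Ctcfl and Dppa3, known from germ cells and the early embryo, were below 1 TPM in both pups. The same 17 regulators had a mean of 20 counts or more and of 100 counts or more. Of these 17, 12 (70.6%) were lower in pup 2. At a mean of 20 counts or more, 52.7% of all genes and 53.9% of protein-coding genes were lower. None of the 17 was 2-fold apart, where 1.96% of all genes with a mean of 100 counts or more were.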
